A study of Rattus norvegicus with 4 samples.

Results

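The 9 genes described here are immediate early and stress response genes, chosen by their symbols: Fos, Fosb, Jun, Junb, Jund, Atf3, Egr1, Ier2 and Ier3. All 9 had a row among the 18957 genes and gene entries counted in rat skin. The skin came from the hindlimb footpad of rats of the outbred Sprague Dawley stock and was collected on day 0, 3, 6 or 9. The protocol in the labels gives 4 irradiations of 10 Gy with an electron beam, on days 1, 2, 4 and 5. By that protocol the day 0 skin had received none, the day 3 skin 2, and the day 6 and day 9 skin all 4. The sample descriptions differ from it, since the day 0 sample is described as taken on day 1 and each later sample is described with 1 irradiation day. Groups therefore follow the day in the sample titles. Age, sex, number of animals and hour of collection are not given in the labels, which name no sham irradiation.

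Immediate early genes are switched on within minutes of a growth signal, a wound or a stress, without new protein synthesis, and most of their transcripts are short-lived. Fos and Jun proteins pair through leucine zippers to form AP-1, a transcription factor that keratinocytes use in proliferation, differentiation and wound repair. Fos proteins need a Jun partner to bind DNA, whereas Jun proteins can also pair among themselves, and JunB and JunD can restrain the activity of c-Jun. Atf3 is a related zipper protein induced by DNA damage and by amino acid or oxidative stress. Egr1 is a zinc finger factor activated through serum response factor, Ier2 is a nuclear protein of the early growth response, and Ier3 is a regulator of survival and ERK signalling that is induced by NF-kappaB and p53.

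Each transcript was counted through a 21-base tag that starts at a CATG site, so a count stands for transcripts and does not grow with their length. The leading tags are shown because they hold most copies of 8 of the 9 genes and the largest part for Jun, with the CATG anchor in capitals, 5′ to 3′.
Fosb: CATGcaattttacttttgtaa
Fos: CATGgtcacagagctggagcc
Jun: CATGtttgtttgtttgggtgt
Junb: CATGgcccccttccagcgtat
Jund: CATGcgcggactagatgcggt
Atf3: CATGtaaactggctgatgacc
Egr1: CATGtgacaaaatacggtttg
Ier2: CATGggacagacgcgggtgct
Ier3: CATGgattgtcagagggcggc
In 6 of the 9 genes the leading tag lay at the CATG site nearest the 3′ end of the transcript and held 89.8 to 99.0% of the gene's copies. The 3 exceptions were Fos, led by site 2 with 96.6% of the copies, Jun, led by site 4 with 42.9%, and Egr1, led by site 5 with 58.1%.

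There was 1 library for each day, with 1982608, 1968034, 1967902 and 1952921 gene counts on days 0, 3, 6 and 9. No spread between animals can be estimated, so no test was made. Each comparison sets 1 library against another, and the 95% intervals describe the counting error alone. A gene is called higher or lower where scaled counts differed by a factor of 2 or more, the larger count was 50 or more, and the interval was clear of 1. Keratinocyte markers were abundant in every library, with summed counts of 52470, 43047, 66682 and 47267 over the 5 of 7 that had a row. These markers did not move together. Krt10 had 13717, 4763, 10006 and 5777 counts and was lower on days 3 and 9 than on day 0. Krt14 was lower on day 3. Krt1 had 21013, 23380, 38510 and 29506 counts and was not called, and no keratinocyte marker was called higher than on day 0. The 6 skeletal muscle markers summed to 4141, 9183, 0 and 8030 counts on days 0, 3, 6 and 9, and each of them was at 0 on day 6. The 5 sweat gland markers summed to 471, 834, 121 and 521. In whole skin, fewer cells of a type and less RNA in each cell cannot be told apart.

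**Figure D1:**
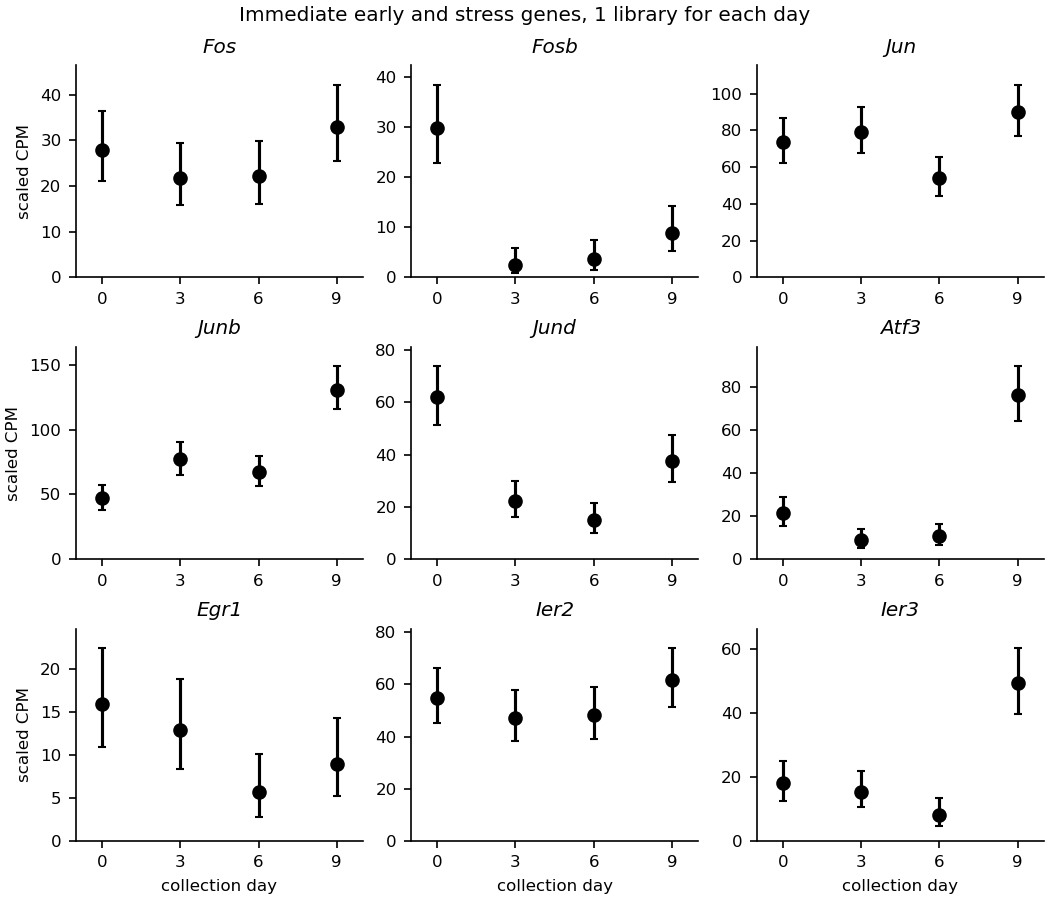
Level of each gene (y axis, scaled CPM over gene counts) by collection day (x axis), 1 library for each day, with exact 95% Poisson intervals for counting error. Fosb and Jund stand highest on day 0, while Junb, Atf3 and Ier3 stand highest on day 9.

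Among the Fos genes, Fosb was lower in every irradiated library and Fos was not called in any comparison. Fosb, a Fos family member that pairs with Jun proteins, had 60, 5, 7 and 17 counts on days 0, 3, 6 and 9. Its scaled level was 29.9 CPM (interval 22.8 to 38.5) on day 0 and 2.48 CPM (0.806 to 5.79) on day 3. The day 0 library stood alone at the top, since its interval overlapped that of no other day. Fosb was 11.0-fold (4.89 to 38.5) lower on day 3, 7.84-fold (3.80 to 21.6) lower on day 6 and 3.30-fold (1.94 to 6.15) lower on day 9. The 3 later levels were less clearly apart: day 9 was 3.35-fold (1.27 to 12.4) above day 3 on counts too low for the rule, and its interval against day 6 contained 1.

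Fos, the c-Fos protein for which the family is named, had 56, 44, 43 and 63 counts on the same days. These are 27.9, 21.8, 22.1 and 33.0 CPM, and the 4 intervals overlap. Its ratio to day 0 was 0.784 (0.514 to 1.18) on day 3, 0.792 (0.519 to 1.20) on day 6 and 1.18 (0.811 to 1.72) on day 9. The furthest apart were days 3 and 9, with a ratio of 0.665 (0.440 to 0.988) of day 3 to day 9. Fosb and Fos were counted in the same libraries, so their shares do not depend on scaling. Fosb made up 51.7% (42.3 to 61.1) of the counts of this pair on day 0, and 10.2% (3.40 to 22.2), 14.0% (5.82 to 26.7) and 21.2% (12.9 to 31.8) on days 3, 6 and 9.

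Fosl1, the Fra-1 protein of the same family, had 14, 4, 7 and 31 counts, too few for the rule in any comparison. Of the counts of Fos, Fosb and Fosl1 together, Fosl1 made up 10.8% (6.01 to 17.4) on day 0 and 27.9% (19.8 to 37.2) on day 9. No row was found for Fosl2, a further gene of this family, so the shares and sums leave it out. The 3 measured Fos genes together had 130, 53, 57 and 111 counts. Their sum was 2.45-fold (1.78 to 3.46) lower on day 3, while on day 9 its ratio to day 0 was 0.897 (0.689 to 1.16). The day 9 sum thus lay within counting error of the day 0 sum, with another composition.

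Among the Jun genes, Jund was lower on days 3 and 6, Junb was higher on day 9 and Jun was called in no comparison. Jund, a Jun protein that many resting cells express, had 124, 45, 29 and 72 counts on days 0, 3, 6 and 9. It was 2.75-fold (1.95 to 3.99) lower on day 3 and 4.10-fold (2.75 to 6.46) lower on day 6. On day 9 it was 1.64-fold (1.22 to 2.23) below day 0, short of the rule, and 2.51-fold (1.62 to 4.04) above day 6. From high to low the days ran 0, 9, 3 and 6, and only the last pair, days 3 and 6, did not differ beyond counting error.

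Junb, a Jun protein induced in wounded and growing epidermis, had 94, 155, 131 and 251 counts. Its levels of 46.9, 77.0, 67.3 and 131 CPM put day 0 below every later day. The ratio to day 0 was 1.64 (1.26 to 2.14) on day 3 and 1.43 (1.09 to 1.89) on day 6, short of the rule, and Junb was 2.79-fold (2.20 to 3.59) higher on day 9. Day 9 stood above days 3 and 6 too, by 1.71-fold (1.39 to 2.10) and 1.95-fold (1.58 to 2.43), the latter just under the factor of 2. Days 3 and 6 did not differ beyond counting error.

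Jun, the c-Jun protein, had 148, 160, 105 and 172 counts. The day 6 library was the low one, 1.37-fold (1.06 to 1.78) below day 0 and 1.47-fold (1.14 to 1.90) below day 3. Days 0, 3 and 9 did not differ beyond counting error. The sum of the 3 Jun genes was 366, 360, 265 and 495 counts, and its ratio to day 0 was 0.979 (0.844 to 1.13) on day 3 and 1.42 (1.24 to 1.63) on day 9.

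Within that sum, the balance of Jund and Junb was different on day 0 from every later day. Jund made up 33.9% (29.0 to 39.0) of the Jun family counts on day 0, and 12.5% (9.27 to 16.4), 10.9% (7.45 to 15.3) and 14.5% (11.6 to 18.0) on days 3, 6 and 9. Junb made up 25.7% (21.3 to 30.5) on day 0, and 43.1% (37.9 to 48.3), 49.4% (43.3 to 55.6) and 50.7% (46.2 to 55.2) after it. For both genes the interval of day 0 is clear of those of the 3 later days, which overlap one another. Jun made up between 34.7 and 44.4%. Its share was 44.4% (39.2 to 49.7) on day 3 and 34.7% (30.6 to 39.1) on day 9, and these intervals do not overlap. The grouping of genes into these sums was made after their counts were seen.

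**Figure D2:**
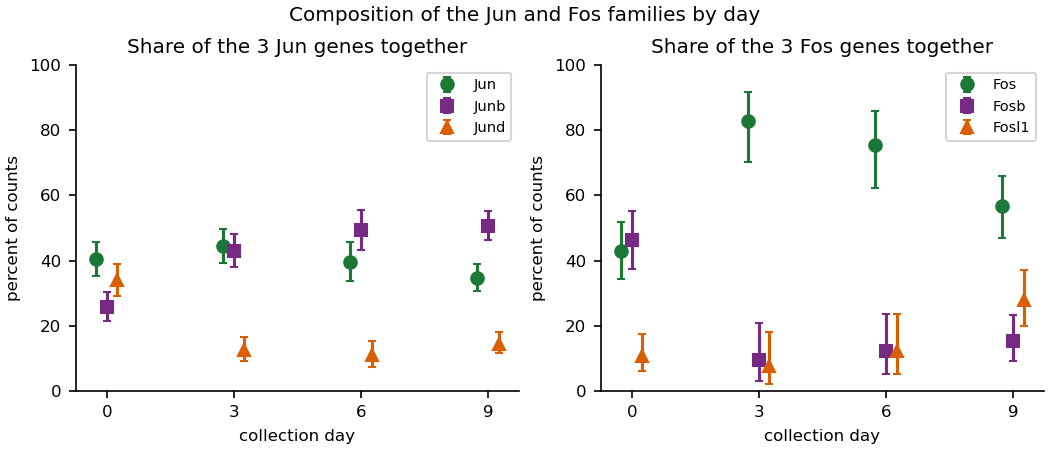
Share of each gene (y axis, percent of counts) in the 3 Jun genes (left) and the 3 measured Fos genes (right) by collection day (x axis), with exact 95% Clopper-Pearson intervals. Jund goes from 33.9% on day 0 to 10.9% on day 6 while Junb goes from 25.7 to 49.4%, and Fosb goes from 46.2% on day 0 to 9.43% on day 3.

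The count of Jun joins 4 main tags, and these did not move together. The tag at site 4 had 60, 84, 28 and 79 copies on days 0, 3, 6 and 9, and that at site 5 had 45, 47, 48 and 61. Site 4 was thus 2.87-fold (1.87 to 4.62) lower on day 6 than on day 3, while the ratio at site 5 was 1.06 (0.692 to 1.61). Site 1, with 33, 18, 12 and 26 copies, was 2.61-fold (1.34 to 5.68) lower on day 6 than on day 0, and site 6 had 10, 9, 17 and 6 copies. The low total of Jun on day 6 was thus seen at sites 4 and 1 and not at sites 5 and 6. Taken from site 4 alone, Jun would pass the rule on day 6 against day 3 and would be 2.06-fold (1.31 to 3.39) lower on day 6 than on day 0.
The 3 tags of Jun that followed the leading one are shown beside it, because the size of the day 6 difference depends on which is read.
Site 4: CATGtttgtttgtttgggtgt
Site 5: CATGgacctaacattcgatct
Site 1: CATGgaaggttttacaaaagg
Site 6: CATGctaacgcagcagttgca

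**Figure D3:**
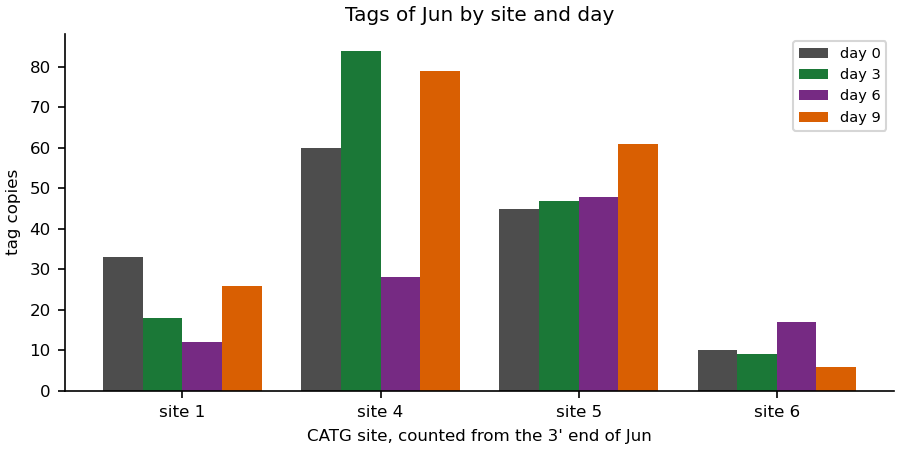
Copies of the 4 main tags of Jun (y axis) by the CATG site they start at, counted from the 3′ end (x axis), with 1 bar for each collection day. Site 4 drops to 28 copies on day 6, while site 5 holds 48.

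Atf3 had the widest upward difference of the 9 genes. It had 43, 18, 21 and 145 counts on days 0, 3, 6 and 9, or 21.5, 8.94, 10.8 and 76.0 CPM. Its level on day 9 stood above all other days, day 0 above days 3 and 6, and days 3 and 6 did not differ beyond counting error. Atf3 was 3.51-fold (2.50 to 5.10) higher on day 9 than on day 0, 8.29-fold (5.19 to 14.7) higher than on day 3 and 6.90-fold (4.44 to 11.7) higher than on day 6. On day 3 it was 2.36-fold (1.36 to 4.42) below day 0, a difference with an interval clear of 1 that the rule leaves out because neither library reached 50 counts. Its site 1 tag held 143 of the 145 copies on day 9.

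Ier3, like Atf3, was highest on day 9. It had 36, 31, 16 and 94 counts, or 18.0, 15.4, 8.22 and 49.2 CPM. Ier3 was 2.72-fold (1.85 to 4.14) higher on day 9 than on day 0, 3.16-fold (2.11 to 4.97) higher than on day 3 and 5.84-fold (3.50 to 10.9) higher than on day 6. Day 6 was 2.15-fold (1.18 to 4.22) below day 0 on counts too low for the rule, and the interval of day 3 against day 0 contained 1. On day 9 its site 2 tag had 11 copies and its site 1 tag 78, so both sites were at their highest. A further tag, which the authors also placed at site 1, had 5 copies on day 9 and none listed on the other days.

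Ier2 was the gene with the smallest range. It had 110, 95, 94 and 118 counts, and the highest level was 1.31 times the lowest. None of the 6 pairs of days had an interval clear of 1. Ier3 made up 24.7% (17.9 to 32.5) of the counts of Ier2 and Ier3 on day 0 and 44.3% (37.5 to 51.3) on day 9.

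Egr1 was the gene with the fewest counts, with 32, 26, 11 and 17. It never reached 50 counts and so could not be called. Day 6 was 2.75-fold (1.39 to 6.21) below day 0 and 2.23-fold (1.09 to 5.12) below day 3. The ratio on day 9 to day 0 was 0.565 (0.290 to 1.03). Of its copies, 62.5% (43.7 to 78.9) came from site 5 on day 0 and 52.9% (27.8 to 77.0) on day 9. The tag at site 8 had 0, 5, 0 and 5 copies, and tags seen once in a library are not counted, so a 0 here does not show absence.

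**Figure D4:**
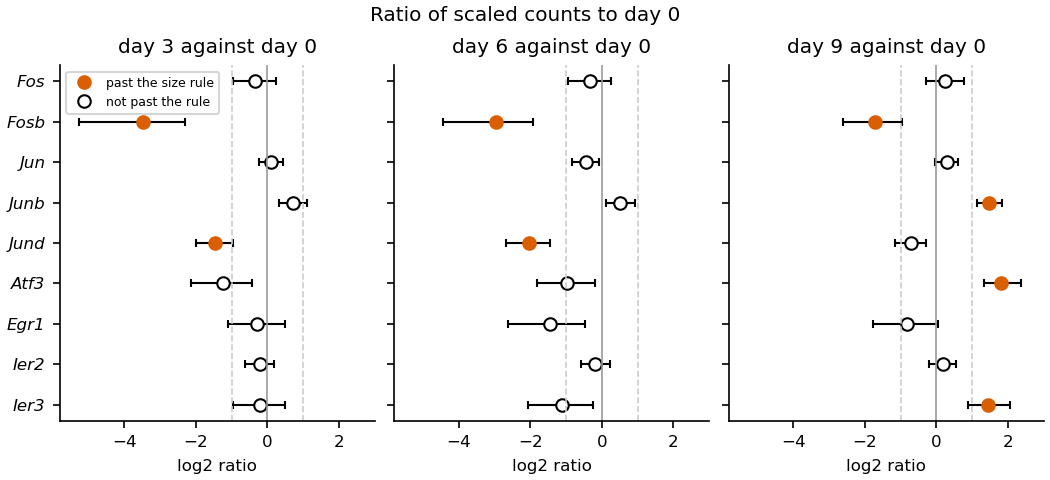
Ratio of scaled counts to day 0 (x axis, log2 scale) for each gene (y axis) on days 3, 6 and 9, with exact 95% intervals for counting error; filled points passed the size rule and dashed lines mark a factor of 2. On days 3 and 6 the 2 filled genes, Fosb and Jund, lie to the left, and on day 9 Junb, Atf3 and Ier3 lie to the right and Fosb to the left.

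Set side by side, the genes called against day 0 were lower on days 3 and 6, and higher or lower on day 9. On day 3 against day 0, 2 of the 9 genes were lower and none higher, and 6 had the 50 counts needed. Over all 5342 genes with that many counts, 7.86% were lower and 8.54% higher. On day 6 the same 2 genes, Fosb and Jund, were lower and none was higher, against 13.1% lower and 7.48% higher over all genes. On day 9, 3 were higher and 1 was lower among the 8 with enough counts, against 10.7% higher and 10.5% lower over all genes. Atf3 and Ier3 reached 50 counts only on day 9, and Fosb only on day 0. Jund had 45 and 29 counts on days 3 and 6, so there it passed the floor through day 0 alone. In these comparisons the count floor therefore let each of these genes be called in 1 direction alone, which for Fosb and Jund was lower. Fosb, Fos and Jund entered the medians over genes with enough counts on days 3 and 6 through day 0 alone. Fosb entered that of day 9 in the same way, and Atf3 and Ier3 entered it through day 9 alone. The median log2 ratio of the 9 genes, low counts included, was -0.30, -0.98 and 0.24 on days 3, 6 and 9. Over the 6, 6 and 8 of them with enough counts it was -0.28, -0.39 and 0.26, and over all genes with enough counts -0.05, 0.03 and -0.01. The 3 comparisons share the day 0 library.

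The irradiated days were also set against one another, and the number of genes that could be called differed between these comparisons. On day 6 against day 3 none of the 9 was called, against 2.84% higher and 6.74% lower over all genes, and only 3 had enough counts. On day 9 against day 6, 7 had enough counts. Jund, Atf3 and Ier3 were higher and none was lower, against 10.0% higher and 4.37% lower over all genes. These 3 reached 50 counts on day 9 and not on day 6, so the floor let them be called higher alone. On day 9 against day 3, 7 had enough counts. Atf3 and Ier3, again with 50 counts on day 9 alone, were higher and none was lower, against 6.41% higher and 4.59% lower. The 9 genes together had 703, 579, 457 and 949 counts, so the day 9 sum was 2.12-fold (1.89 to 2.37) above the day 6 sum.

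Other measures moved with these days. Fibroblast markers summed to 16901, 63671, 47956 and 45406 counts over 6 of 6 genes. Of the 5 with enough counts, 5, 2 and 4 were higher on days 3, 6 and 9 than on day 0. Over all genes with enough counts, 8.54, 7.48 and 10.7% were higher on these days. Macrophage markers summed to 680, 1510, 1139 and 1085 counts over 7 of 7. Of the 6, 5 and 6 with enough counts, 4, 2 and 2 were higher. Blood markers summed to 35, 1529, 104 and 598 counts over 3 of 3, of which Hbb alone gave 35, 1510, 104 and 579. Adipocyte markers summed to 186, 1029, 341 and 651 over 4 of 5. Only 3, 1 and 2 of them had enough counts, and all of these were higher. Mast cell markers summed to 334, 740, 370 and 418 over 6 of 7. Of the 4 with enough counts, 2, 0 and 1 were higher, and the markers did not move together. Among them Cma1 had 84, 109, 46 and 35 counts and was 2.27-fold (1.52 to 3.50) lower on day 9. Tpsb2 had 82, 81, 50 and 48 and was not called. These 5 sums were lowest on day 0, the day on which Fosb and Jund were highest, and their part in those differences was not tested. Fosb and Jund were low on day 3, when the muscle and sweat gland markers stood at 9183 and 834 counts, and on day 6, when these stood at 0 and 121. The part of muscle and gland content in the levels of Fosb and Jund was not tested either. The neutrophil markers summed to 9, 2, 2 and 6 counts over the 3 of 6 with a row, and the T cell markers to 25, 8, 3 and 23 over 3 of 5.

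Promoter windows show which known sites of these factors lie before some of the genes. The windows available here were of the GRCr8 assembly, which is newer than the Rnor_6.0 assembly named for the files. They covered 5 of the 9 genes: Fosb, Junb, Jund, Egr1 and Ier2. Fos, Jun, Atf3 and Ier3 had no window in this set, which does not show that the assembly lacks them. The 250 bases before the start were searched on both strands for the cyclic AMP element TGACGTCA, the AP-1 site TGANTCA, the EGR site GCGTGGGCG, the CArG box of serum response factor, and TATAAA. The AP-1 letters cannot match within the cyclic AMP element, and CArG and TATAAA can share bases. The windows of Jund, Ier2 and Junb are printed because Jund and Junb were called in opposite directions against day 0 and Ier2 was called in no comparison. Capitals mark the matches.
Jund, chr16:18769772-18770021, minus strand: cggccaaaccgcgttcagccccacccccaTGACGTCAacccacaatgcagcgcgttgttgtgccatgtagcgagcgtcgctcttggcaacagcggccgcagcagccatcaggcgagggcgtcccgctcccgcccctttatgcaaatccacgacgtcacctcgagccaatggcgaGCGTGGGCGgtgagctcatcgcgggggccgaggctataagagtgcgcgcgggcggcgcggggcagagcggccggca
Ier2, chr19:40399123-40399372, plus strand: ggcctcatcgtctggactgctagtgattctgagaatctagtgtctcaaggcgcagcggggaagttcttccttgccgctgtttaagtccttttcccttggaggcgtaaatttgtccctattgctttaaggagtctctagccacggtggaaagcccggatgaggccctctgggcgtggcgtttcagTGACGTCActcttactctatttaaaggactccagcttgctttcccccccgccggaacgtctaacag
Junb, chr19:40080876-40081125, plus strand: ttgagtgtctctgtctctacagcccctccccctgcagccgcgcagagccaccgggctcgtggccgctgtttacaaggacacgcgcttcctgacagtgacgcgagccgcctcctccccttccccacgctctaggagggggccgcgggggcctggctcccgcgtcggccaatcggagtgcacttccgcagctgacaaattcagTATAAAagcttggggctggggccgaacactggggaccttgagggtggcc
The cyclic AMP element began 221 bases before the start of Jund and 66 bases before that of Ier2, and 1.59% of 33469 windows of this length held one. The level of Jund ranged 4.15-fold over the 4 days and that of Ier2 1.31-fold, with 1 such element each. Whether the element bears on either level was not tested. The window of Jund also held an EGR site, found in 0.478% of all windows. That of Egr1 held 2 CArG boxes, and 501 of the 33469 windows held at least 1. TATAAA was found before Junb and Fosb and in 12.9% of all windows, and none of the 5 windows held the AP-1 site, which 6.34% of windows did. A match is a description of the letters in a window.

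Related genes were counted in 9 further lists, and as before a gene needed 50 counts in 1 of the 2 libraries to be called. Over all genes, 8.54, 7.48 and 10.7% were higher and 7.86, 13.1 and 10.5% lower on days 3, 6 and 9. Of 13 other AP-1 family genes 9 had a row and 4 had enough counts on each day, and among these Maff, a small Maf protein, was alone in being called. It had 90, 26, 53 and 75 counts and was 3.43-fold (2.23 to 5.61) lower on day 3. Of 13 other ATF and CREB genes 12 had a row and 5 had enough counts on each day, and among these Crem, a cyclic AMP response modulator, was alone in being called. It had 26, 75, 56 and 137 counts and was 2.83-fold (1.82 to 4.67), 2.19-fold (1.37 to 3.68) and 5.44-fold (3.62 to 8.77) higher on days 3, 6 and 9. None of 5 EGR and NAB genes was called, and only the corepressors Nab1 and Nab2 among them reached 50 counts. Egr2 and Egr4 had at most 3 counts in a library, and Egr3 had 14, 15, 15 and 19.

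Of 17 other immediate early transcription factors 16 had a row, and 9, 9 and 11 had enough counts on days 3, 6 and 9: none was higher on days 3 or 6 and 2 were higher on day 9, while 1 was lower each day. The lower one was Klf4, a factor of epidermal differentiation, with 2328, 1052, 946 and 1108 counts, 2.22-fold (2.07 to 2.39) lower on day 3. Nr4a3, an orphan nuclear receptor, had 4, 7, 8 and 83 counts and was 19.4-fold (8.19 to 81.8) higher on day 9. Cebpd, a factor of inflammation, had 188, 355, 239 and 682 counts and was 3.80-fold (3.24 to 4.50) higher on day 9.

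Of 32 other immediate early genes that are not transcription factors 28 had a row, and 16, 17 and 16 had enough counts on days 3, 6 and 9: 1, 2 and 2 were higher and 2, 3 and 1 were lower. Zfp36, which destabilises short-lived messages including many of this class, had 65, 29, 14 and 72 counts. It was 2.23-fold (1.43 to 3.62) lower on day 3 and 4.39-fold (2.50 to 8.70) lower on day 6. Plk3, a stress kinase, had 132, 31, 62 and 200 counts and was 4.23-fold (2.88 to 6.55) lower on day 3. Sgk1, a kinase induced by serum and glucocorticoids, had 97, 97, 28 and 94 counts and was 3.32-fold (2.19 to 5.32) lower on day 6. Plk2, another stress kinase, had 0, 71, 59 and 3 counts and was at least 23.5-fold higher on day 3, set against a floor of 3 counts in the day 0 library.

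Of 26 kinases and factors upstream 21 had a row, and 13, 14 and 14 had enough counts: 1, 0 and 1 were higher and 1, 2 and 1 were lower. Elk3, a partner of serum response factor, had 103, 216, 197 and 245 counts and was 2.49-fold (1.98 to 3.17) higher on day 9. Map2k6, a kinase that activates p38, had 56, 23, 28 and 20 counts and was 2.63-fold (1.58 to 4.69) lower on day 9. Srf itself had 72, 72, 79 and 86 counts and was not called.

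Of 23 integrated stress response genes 22 had a row, and 13, 13 and 15 had enough counts. Atf5 and Cebpb among them are also in lists above. On day 3 none was higher and 1 was lower: Chac1, a glutathione-degrading enzyme, had 102, 45, 64 and 101 counts and was 2.26-fold (1.59 to 3.31) lower. None was called on day 6. On day 9, 2 were higher and 2 lower. Slc7a11, the cystine transporter, had 8, 12, 19 and 98 counts and was 12.1-fold (6.28 to 30.6) higher, and Sesn2, a stress sensor, had 18, 41, 48 and 61 and was 3.49-fold (2.07 to 6.40) higher. Phgdh, the first enzyme of serine synthesis, had 148, 84, 132 and 20 counts and was 6.91-fold (4.40 to 11.9) lower. Ddit3, the CHOP factor, had 35, 37, 24 and 45 counts and was not called.

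Of 28 genes known to be driven by AP-1, 20 had a row, and 11, 10 and 12 had enough counts: 3 were lower on day 3, 4 on day 6 and none on day 9, while 2, 1 and 3 were higher. Furthest apart was Krt6a, a keratin of wounded and thickened epidermis. Its row carries a locus name, matched by gene identifier to a RefSeq gene now named Krt6c, with Krt6a among its synonyms. It had 432, 1071, 5316 and 66660 counts, and was 12.7-fold (11.5 to 14.0) higher on day 6 and 162-fold (147 to 178) higher on day 9. Keratin genes have near-identical copies, so the split of tags among them is uncertain. Vegfa, the endothelial growth factor, had 62, 31, 9 and 43 counts and was 6.40-fold (3.31 to 15.3) lower on day 6. Sprr1a, a cornified envelope precursor, had 739, 307, 160 and 2909 counts, 4.48-fold (3.78 to 5.36) lower on day 6 and 4.13-fold (3.81 to 4.49) higher on day 9. The genes of this list thus stood on both sides of day 0.

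Of 15 heat shock genes 13 had a row and 10 had enough counts on each day: 0, 0 and 1 were higher and 0, 1 and 1 lower. Hspb1, a small heat shock protein, had 66, 44, 60 and 203 counts and was 3.21-fold (2.43 to 4.33) higher on day 9, while Hspa1b, an inducible Hsp70, had 881, 637, 472 and 360 and was 2.33-fold (2.06 to 2.64) lower. Hspb8, a further small heat shock protein, had 256, 142, 116 and 422 counts and was 2.14-fold (1.71 to 2.69) lower on day 6.

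The median log2 ratio to day 0, over genes with 50 counts, is given for days 3, 6 and 9 and can be set beside -0.05, 0.03 and -0.01 for all genes. It was -0.62, -0.22 and -0.13 for the other AP-1 genes, and 0.77, -0.31 and 0.37 for the other ATF and CREB genes. For the EGR and NAB genes it was -0.03, 0.18 and 0.16, and for the other early transcription factors -0.38, -0.34 and 0.62. The AP-1 driven genes had -0.61, -0.31 and 0.72, so these and the early transcription factors lay below the all-gene median on days 3 and 6 and above it on day 9. The other early genes had 0.09, 0.14 and 0.35 and the upstream genes 0.02, 0.18 and 0.30. The stress response genes had -0.12, 0.12 and -0.06 and the heat shock genes -0.02, 0.14 and 0.48.

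**Figure D5:**
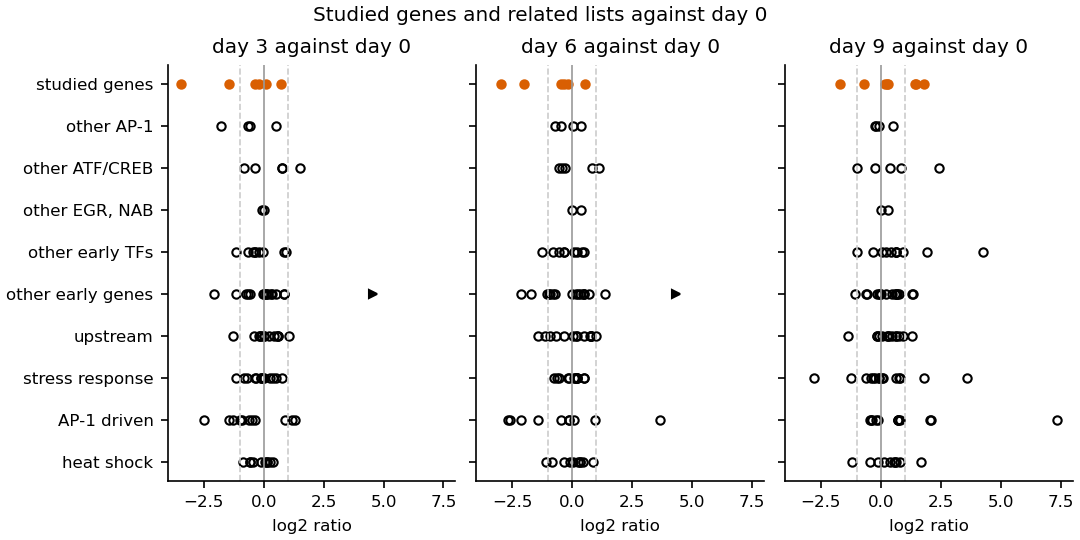
Log2 ratio to day 0 (x axis) on days 3, 6 and 9 for the studied genes (filled) and 9 related lists (open), showing genes with at least 50 counts in either library; dashed lines mark a factor of 2 and triangles mark a lower bound for a gene at 0 on day 0. On day 9 the rightmost open points include Krt6a among the AP-1 driven genes, Nr4a3 among the early transcription factors and Slc7a11 in the stress response list.

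Likeness to the called genes was measured as the distance between centred log2 profiles over the 4 libraries, among 3856 genes with an established symbol and 50 counts on average. Nearest to Junb was Cycs, cytochrome c, at a distance of 0.08, with 337, 525, 439 and 893 counts, followed by Erap1 and Rnf115, both at 0.22. Nearest to Jund was Gltp, a glycolipid transfer protein, at 0.23, with 2081, 888, 481 and 1151 counts, followed by Ptpn13 at 0.24 and Mrpl52 at 0.27. Nearest to Ier3 was Fgfbp1, a carrier of fibroblast growth factors, at 0.18, with 170, 139, 89 and 429 counts, followed by Nexn at 0.50 and Lmcd1 at 0.51. Nearest to Atf3 was Serpinb2, a plasminogen activator inhibitor, at 0.46, with 218, 111, 87 and 570 counts, followed by Serinc3 at 0.79 and Hspb1 at 0.80. Fosb had no match as near among the genes searched: Chd4, a chromatin remodeller, came nearest at 0.92 with 266, 63, 64 and 85 counts, before Eif6 at 0.96 and Naprt1 at 1.00. Fosb itself had only 5 and 7 counts on days 3 and 6, so its profile carries a wide counting error. Genes with so few counts on average were not searched. What part this has in the distance was not tested. These distances rest on 4 libraries and describe those alone.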

How the data were processed

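Digital gene expression tags were sequenced from 1 footpad skin library for each of days 0, 3, 6 and 9. As the deposited columns show, the authors added up tag copies into whole-number gene counts, leaving out tags seen once, and scaled them to CPM over all tags seen at least 2 times. That CPM column is headed TPM in the deposited files but was not scaled by length. The gene and tag files were checked against each other, and 0 gene sums or scaled values departed from this reading. Rnor_6.0 is the assembly in the submitters' processing notes. Which aligner and annotation were used is not given in the sources used here.

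Libraries held 3592019, 3360368, 3556566 and 3442555 tags. Counts were joined by gene identifier and scaled with TMM factors of edgeR 4.0.16. Ratios used scaled counts plus 0.5, with exact 95% Clopper-Pearson intervals (scipy 1.17.1), and levels used exact Poisson intervals. No count test was run, since 1 library a day leaves no spread to estimate. The size rule was run over the whole table and checked on simulated counts. The named genes are the 9 members, up to 4 genes of each list furthest apart among those past the rule, and the 3 genes nearest to each called member; Fosl1, Srf, Ddit3, Chac1 and the EGR genes were added after their values were seen. Some list genes past the rule are not reported here. The 9 genes and the lists were chosen with earlier results of these data known. Alternatives covered scaling with totals or DESeq2 1.42.0 size factors, the count floor, the fold and interval, the prior count, the authors' CPM plus 1 and the leading tag alone.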

Additional observations from a re-analysis of the deposited data

How the results depend on the processing

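No paired analysis was possible because each day has 1 library and no result comes from a test. Of 378 member ratios recomputed under other scalings, prior counts, units or tags, 374 stayed within the counting interval of the reported ratio, and no called ratio changed sign. The 4 others were ratios of Jun from its leading tag alone, at log2 values of 0.47 (day 3 against day 0), -1.04 (day 6 against day 0), -1.52 (day 6 against day 3) and 1.51 (day 9 against day 6). The number of called members depended mainly on the count floor. With a floor of 200 counts it was 0 on day 3, 0 on day 6 and 1 (Junb) on day 9 against day 0, and 0 for day 9 against day 3 and against day 6. With a floor of 10 or with none it was 4 for day 6 against day 0, adding Egr1 and Ier3 as lower, and 1 for day 6 against day 3 (Egr1). These floors also gave 3 for day 3 against day 0, adding Atf3 as lower, and 3 for day 9 against day 3, adding Fosb as higher. With the leading tag alone, day 6 against day 3 gave 1 (Jun). Jun was then also added as lower on day 6 against day 0, giving 3, and as higher on day 9 against day 6, giving 4. With a factor of 1.5, day 9 against day 3 and day 9 against day 6 each gave 5. That factor gave 3 for day 3 against day 0, adding Junb as higher, and 5 for day 9 against day 0, adding Jund as lower. Scaling without the 28 genes at 0 on day 6 alone was added after seeing the data. Depth limits Egr1 and Fosb most, at 86 and 89 counts over the 4 libraries.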
